A study of Mus musculus with 40 samples.

Results

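The comparison described here is the interaction of genotype and brain region, that is, the difference between Df(16)A/+ and wild-type mice in the hippocampus minus the same difference in the prefrontal cortex. It uses 40 of the 40 arrays of the series, in 4 groups of 10: Df(16)A/+ hippocampus, wild-type hippocampus, Df(16)A/+ prefrontal cortex and wild-type prefrontal cortex. Df(16)A/+ mice carry 1 chromosome 16 with an engineered deletion that matches the human 22q11.2 microdeletion, so the genes inside it are left with a single copy. All mice, mutants and controls alike, were untreated male littermates 8 weeks old with C57BL/6 as the background strain. Total RNA of each tissue sample was measured on 1 Affymetrix Mouse430_2 array, and values are log2 signals after quantile normalization of all arrays together. A positive interaction means that the mutant stood higher, or less far below wild type, in the hippocampus than in the prefrontal cortex.

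The hippocampus and the prefrontal cortex are both built mainly from glutamatergic projection neurons with local inhibitory neurons and glia, but their projection neurons belong to different classes, the granule and pyramidal cells of the hippocampal formation and the layered pyramidal cells of the cortex. The deletion removes a copy of Dgcr8, the RNA-binding partner of Drosha in the complex that cuts hairpins out of primary microRNA transcripts, and mice with this deletion are studied for prefrontal and hippocampal circuits and for memory. A response called in one region and missed in the other may only have fallen on different sides of a threshold, and the interaction tests the difference itself.

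The 4 groups carried the tissue they are labelled with. Prox1, a transcription factor of dentate granule cells, lay between 8.63 and 9.32 in the 20 hippocampal arrays, against 3.12 to 3.44 in the 20 prefrontal arrays. Cux2, a factor of upper cortical layers, lay between 6.87 and 7.91 in hippocampus, against 10.71 to 11.22 in prefrontal cortex. Of 9 hippocampal check genes, 8 were higher in every hippocampal array than in any prefrontal array, and Wfs1 overlapped. Among the prefrontal check genes described here, 6 separated the regions as labelled, and Fezf2 was higher in hippocampus.

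The arrays were hybridized in 5 runs, and run and genotype were unevenly mixed. In hippocampus, run 3 held 8 Df(16)A/+ arrays and no wild-type array, run 2 held 2 Df(16)A/+ and 9 wild-type arrays, and run 1 held a single wild-type array. In prefrontal cortex, run 3 held 1 Df(16)A/+ and 3 wild-type arrays, run 4 held 5 Df(16)A/+ and 7 wild-type arrays, and run 5 held 4 Df(16)A/+ arrays. No run held all 4 groups, so no value of the interaction exists within a single run, and the estimate with the run as a block is given beside the results instead. In hippocampus only run 2 held both genotypes, so the hippocampal part of that estimate rests on 2 Df(16)A/+ arrays. Chip lot and genotype were unevenly mixed too. In prefrontal cortex, lot 2 held 6 wild-type arrays and no Df(16)A/+ array, and lot 1 held 10 Df(16)A/+ and 4 wild-type arrays. In hippocampus, lot 1 held 7 Df(16)A/+ and 9 wild-type arrays. Lots 3 and 4 held 2 and 1 Df(16)A/+ hippocampal arrays, and lot 5 held 1 wild-type array. With the chip lot as a block, 1 probe set was called in the interaction. The difference of the 3′ and 5′ beta-actin probe sets, a measure of RNA integrity, had medians of 1.27 in Df(16)A/+ hippocampus, 1.31 in wild-type hippocampus, 1.25 in Df(16)A/+ prefrontal cortex and 1.25 in wild-type prefrontal cortex. Nothing in the labels says how the separate tissue samples were dissected, so p-values measure the spread between these samples.

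Of 22548 probe sets tested, 194 were called in the interaction (0.86%, limma, Benjamini-Hochberg adjusted p under 0.05), and 4238 had an unadjusted p under 0.05. The interaction was above 0 for 141 of the calls (0.625% of all tested) and below 0 for 53 (0.235%). When 1 probe set was kept per gene, that of highest mean signal, it was itself called for 121 genes, 93 above 0 and 28 below. Counts of called genes are made this way throughout, so a gene called only at another probe set is not in them. Differences were small: the median absolute interaction of the calls was 0.31 on the log2 scale, and 19 of them reached 1.5-fold. The split of 141 against 53 rests on the scaling: on the values as deposited, without joint normalization, it was 509 above and 63 below 0, and with each array centred on its median it was 1024 above and 25 below. The median interaction of all genes was 0.12 under median centring, against 0.01 in the jointly normalized values, and list medians under that scaling are given relative to it.

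Far more probe sets were called in a single region than differed between the regions. In hippocampus 3512 probe sets were called between genotypes (15.6%), 1866 higher and 1646 lower in Df(16)A/+, and in prefrontal cortex 2913 were called (12.9%), 1232 higher and 1681 lower. Of 2724 called in hippocampus but not in prefrontal cortex, 68 were also called in the interaction (2.5%). Of 2125 called in prefrontal cortex but not in hippocampus, 111 were (5.22%). Among the 2724 the sign in prefrontal cortex was the same for 74.4%, and among the 2125 the sign in hippocampus was the same for 70.9%. The 788 probe sets called in both regions ran the same way in 774 cases and opposite ways in 14, and all 14 were called in the interaction. Outside the deleted interval the genotype differences of the regions, which share no array, correlated with r = 0.47 over 22518 probe sets. The study's design text gives 10 mutant and 10 wild-type mice for both regions, which implies that the regions came from the same animals, and r is a description across probe sets that are not independent of each other.

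**Figure D1:**
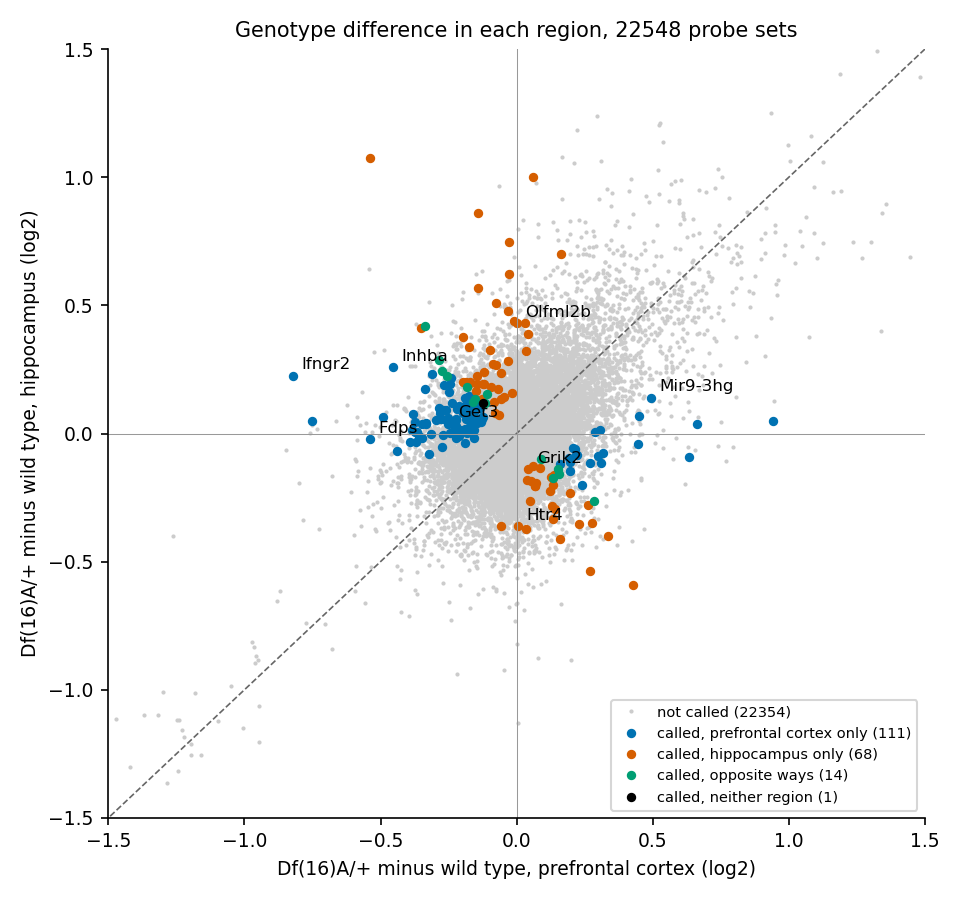
Each point is 1 of 22548 probe sets, with the Df(16)A/+ minus wild-type difference in prefrontal cortex on the horizontal axis and in hippocampus on the vertical axis (log2 scale, n = 10 arrays per group). The dashed line marks equal differences, and 7 probe sets lie outside the axes. The 111 points called in prefrontal cortex only lie along the horizontal axis, mostly left of 0, the 68 called in hippocampus only lie along the vertical axis, and the 14 called opposite ways lie to the upper left and lower right.

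The calls fell mainly into prefrontal decreases. In 111 probe sets (78 genes) the genotype difference was called in prefrontal cortex and not in hippocampus, and in 69 of the 78 genes the transcript was lower in Df(16)A/+ prefrontal cortex. In 68 probe sets (35 genes) it was called in hippocampus and not in prefrontal cortex, with 19 genes higher and 16 lower in Df(16)A/+ hippocampus. In 14 probe sets (7 genes) it was called in both, in opposite ways. None was called in both in the same way, and 1 (Ttc19, 0.12 in hippocampus and -0.13 in prefrontal cortex, named after its values were seen) in neither. In the other region the difference had the opposite sign in 61 of the 68 hippocampal and 90 of the 111 prefrontal probe sets, a sign that the choice of interaction calls favours. Most of these differences were small, with an unadjusted p under 0.05 in 28 of the 68 and 28 of the 111. Both group means of the other region were under 4 in 6 of the 68 and in 6 of the 111, where a difference there could hardly have been measured.

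A model that took the hybridization run as a block called 31 probe sets in the interaction (0.137%), 10 above and 21 below 0, and 2 of the 194 were among them, those of Dnajc15 and Inhba. The sign of the interaction was the same in 192 of the 194, and 89 had an unadjusted p under 0.05. Among the prefrontal class 64 of 111 did so, and among the hippocampal class 18 of 68. The genotype difference in hippocampus, where run and genotype overlap most, was called in 66 probe sets with the run as a block, and in prefrontal cortex in 1545. Leaving out the 3 Df(16)A/+ hippocampal arrays of chip lots 3 and 4 left 18 calls, and the beta-actin difference as a covariate left 56. Single arrays weighed on the count as well, which was 36 without Df(16)A/+ hippocampus replicate 3 and 727 without Df(16)A/+ hippocampus replicate 1.

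**Figure D2:**
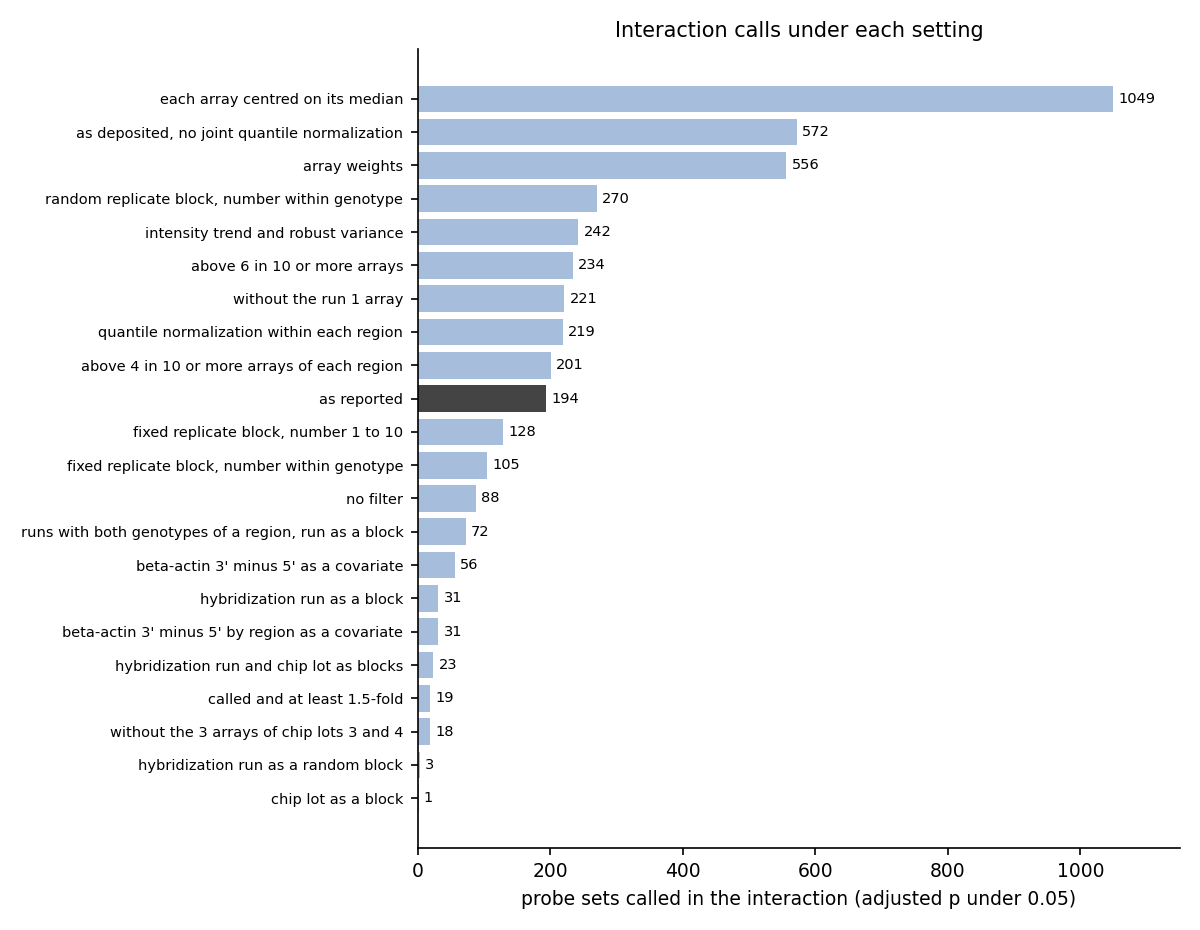
Bars give the number of probe sets called in the interaction (limma, adjusted p under 0.05) under each setting, drawn from 0, and the dark bar is the result as reported. Counts run from 1 with the chip lot as a block to 1049 with each array centred on its median, against 194 as reported.

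Of the genes called lower in prefrontal cortex only, Get3 had the smallest adjusted p. Get3 is the ATPase that carries tail-anchored membrane proteins to the endoplasmic reticulum. Its signal was 10.72 to 10.97 (median 10.81) in Df(16)A/+ hippocampus, against 10.71 to 10.85 (median 10.80) in wild-type hippocampus. In Df(16)A/+ prefrontal cortex it was 10.60 to 10.86 (median 10.70), against 10.91 to 11.02 (median 10.97) in wild-type prefrontal cortex. The hippocampal groups overlapped, and every Df(16)A/+ prefrontal array lay below every wild-type one, at 84.3% of the wild-type signal. The interaction was 0.29 ± 0.05 (SE, adjusted p = 0.0019), and 0.23 ± 0.07 once the run was a block (adjusted p = 0.18). It stayed called without each of the 40 arrays in turn, with an adjusted p of at most 0.0048.

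Ufsp2 is the protease that matures the ubiquitin-like modifier UFM1 and removes it from its targets. It measured 9.63 to 9.98 (median 9.73) in Df(16)A/+ hippocampus, against 9.56 to 9.79 (median 9.65) in wild-type hippocampus. It measured 9.60 to 9.76 (median 9.66) in Df(16)A/+ prefrontal cortex, against 9.75 to 9.92 (median 9.87) in wild-type prefrontal cortex. The prefrontal groups overlapped only at their edges, and all 10 mutant arrays lay below the wild-type mean. The interaction was 0.29 ± 0.05 (adjusted p = 0.0074), and 0.26 ± 0.08 with the run blocked (adjusted p = 0.18). Cops6 is a subunit of the COP9 signalosome, which strips the modifier NEDD8 from cullin ubiquitin ligases. It stood at 10.88 to 11.14 in Df(16)A/+ hippocampus, against 10.84 to 11.04 in wild-type hippocampus, and at 10.61 to 10.95 in Df(16)A/+ prefrontal cortex, against 10.99 to 11.10 in wild-type prefrontal cortex. The interaction of Cops6 was 0.25 ± 0.05 (adjusted p = 0.0124), the prefrontal groups did not overlap, and a weaker probe set of the gene gave 0.44 (adjusted p = 0.11). Spsb3, a substrate adaptor of cullin ligases, was at 79.3% of wild type in Df(16)A/+ prefrontal cortex and 103% in Df(16)A/+ hippocampus (interaction 0.38 ± 0.07, adjusted p = 0.0124). Pde6d, a carrier of prenylated proteins, and Iftap, a partner of the intraflagellar transport machinery of cilia, were at 86.0% and 84.0% of wild type in Df(16)A/+ prefrontal cortex, with interactions of 0.31 and 0.29 (adjusted p = 0.0124 each). When the run was blocked, the interaction was 0.19 for Cops6, 0.29 for Spsb3, 0.35 for Pde6d and 0.18 for Iftap, none called.

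The promoters of Get3 and Ufsp2, the genes of smallest p among those lower in prefrontal cortex only that have 1 promoter in the RefSeq table, and of Psma2, for the proteasome described next, are shown so that a reader can see the sequence next to which these transcripts start. Each runs 5′ to 3′ from 250 bases before to 50 after the start (build GRCm38.p6). Capitals mark matches on either strand to fixed words, the ETS word CCGGAAG, the NRF1 word GCGCATGC, the cyclic-AMP response element TGACGTCA, the E-box CACGTG and the CCAAT box CCAAT.
Get3, chr8:85025238-85025537, minus strand: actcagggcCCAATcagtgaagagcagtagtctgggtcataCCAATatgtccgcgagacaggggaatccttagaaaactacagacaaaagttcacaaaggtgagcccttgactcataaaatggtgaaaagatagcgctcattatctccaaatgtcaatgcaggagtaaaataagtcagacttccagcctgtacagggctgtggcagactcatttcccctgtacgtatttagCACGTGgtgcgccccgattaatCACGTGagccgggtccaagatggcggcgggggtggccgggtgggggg
Ufsp2, chr8:45975278-45975577, plus strand: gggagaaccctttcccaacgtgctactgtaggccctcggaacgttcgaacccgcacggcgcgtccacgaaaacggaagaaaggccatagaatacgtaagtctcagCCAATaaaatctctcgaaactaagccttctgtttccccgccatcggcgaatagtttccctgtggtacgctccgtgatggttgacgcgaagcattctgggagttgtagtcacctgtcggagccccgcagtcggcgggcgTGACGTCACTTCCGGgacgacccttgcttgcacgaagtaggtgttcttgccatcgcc
Psma2, chr13:14612992-14613291, plus strand: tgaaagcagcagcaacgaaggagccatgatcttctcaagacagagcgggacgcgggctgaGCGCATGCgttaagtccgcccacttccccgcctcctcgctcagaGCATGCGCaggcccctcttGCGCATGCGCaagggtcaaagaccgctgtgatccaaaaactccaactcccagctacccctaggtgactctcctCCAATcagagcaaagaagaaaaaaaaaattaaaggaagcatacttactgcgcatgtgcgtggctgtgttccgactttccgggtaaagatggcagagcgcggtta
Get3 held 2 E-boxes and 2 CCAAT boxes, Ufsp2 held 1 CCAAT box, 1 cyclic-AMP response element and 1 ETS word, and Psma2 held 4 NRF1 words, a pair of which overlap on opposite strands, and 1 CCAAT box. Of 69 genes lower in prefrontal cortex only, 58 had a promoter in the table, and 11 of these 58 held the ETS word, against 17.7% of the 9185 promoters of all tested genes. The NRF1 word was in 6.9%, against 5.55% of all, the cyclic-AMP response element in 3.45%, against 3.29%, the E-box in 17.2%, against 10.5%, and the CCAAT box in 48.3%, against 38.5%. In the hippocampal class 29 of 35 genes had a promoter, and the ETS word was in 9 of them (31.0%). A match is a description of the letters, not a binding site, and no test was made of these shares.

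The proteasome, which degrades ubiquitin-tagged proteins, had 39 measured genes, of which 3 were called in the interaction, all above 0 (Psma2, Psma5 and Psmd14), against 1.07% of all genes. In Df(16)A/+ prefrontal cortex 15 were called lower and 2 higher, and in Df(16)A/+ hippocampus 3 lower and 1 higher. Of all 11304 genes, 9.59% were called lower in prefrontal cortex and 8.68% in hippocampus. Psma5, a subunit of the outer ring of the core particle, measured 11.67 to 11.86 (median 11.78) in Df(16)A/+ prefrontal cortex, against 11.92 to 12.02 (median 11.95) in wild-type prefrontal cortex, without overlap. In hippocampus the range was 11.53 to 11.80 (median 11.72) in Df(16)A/+, against 11.59 to 11.76 (median 11.74) in wild type, and the groups overlapped throughout. The interaction was 0.18 ± 0.04 (adjusted p = 0.038), and a second probe set gave 0.16 (adjusted p = 0.10). Psma2, of the same ring, was at 87.7% of wild type in Df(16)A/+ prefrontal cortex and 101% in Df(16)A/+ hippocampus (interaction 0.20 ± 0.05, adjusted p = 0.036). Its promoter with 4 NRF1 words is shown above, but the promoter of Psma5 held no match to any of the fixed words. That of Psmd14 held 3 CCAAT boxes and no NRF1 word. Psmd14, the deubiquitinase of the lid, was at 89.2% and 106% of wild type (interaction 0.24 ± 0.06, adjusted p = 0.038), and with the run as a block its interaction was 0.07. The median interaction of the 39 genes was 0.09, against 0.01 over all 11304 genes, and 28 of 39 were above 0, against 5895 of 11304. Blocking the run gave 0.15 for Psma2 and 0.20 for Psma5, neither called.

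Genes of the mitochondrion gave calls in the same direction. Of 72 measured subunits of oxidative phosphorylation, which makes ATP from the respiratory chain, 4 were called in the interaction above 0 and none below. The share called in the interaction was 1.07% over all genes. In prefrontal cortex 36 were called lower and none higher in Df(16)A/+, against 11 lower and none higher in hippocampus. Of all genes, 9.59% were called lower in prefrontal cortex and 8.68% in hippocampus. Ndufs1, the largest subunit of complex I, measured 10.95 to 11.16 (median 11.08) in Df(16)A/+ prefrontal cortex, against 11.17 to 11.26 (median 11.21) in wild-type prefrontal cortex. It measured 11.33 to 11.70 (median 11.46) in Df(16)A/+ hippocampus, against 11.22 to 11.57 (median 11.33) in wild-type hippocampus. The prefrontal groups were separate and the hippocampal groups overlapped, with 8 of 10 mutant arrays above the wild-type mean. The interaction of Ndufs1 was 0.23 ± 0.06 (adjusted p = 0.040). Ndufs3, also of complex I, and Atp5c1 and Atp5g2, subunits of ATP synthase, had interactions of 0.20, 0.21 and 0.30 (adjusted p = 0.047, 0.040 and 0.044), and a dimmer probe set of Atp5c1 gave -0.11 (adjusted p = 0.48). Blocking the run left interactions of 0.22 for Ndufs1, 0.12 for Ndufs3, 0.08 for Atp5c1 and 0.09 for Atp5g2, none called.

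Among 76 measured proteins of the mitochondrial ribosome, which translates the respiratory subunits encoded in mitochondrial DNA, 4 were called in the interaction above 0 and none below. Over all genes 1.07% were called in the interaction. In prefrontal cortex 33 were called lower (9.59% of all genes were), and in hippocampus 12 (8.68% of all genes were). Mrpl55 ran from 6.10 to 7.06 (median 6.76) in Df(16)A/+ prefrontal cortex, against 7.00 to 7.43 (median 7.21) in wild-type prefrontal cortex. It ran from 6.67 to 7.63 (median 6.94) in Df(16)A/+ hippocampus, against 6.60 to 7.09 (median 6.93) in wild-type hippocampus. All 10 mutant prefrontal arrays lay below the wild-type mean, and the interaction was 0.56 ± 0.13 (adjusted p = 0.038). Mrps11 was at 76.3% of wild type in Df(16)A/+ prefrontal cortex and 97.9% in Df(16)A/+ hippocampus (interaction 0.36 ± 0.09, adjusted p = 0.040). Mrps18a and Mrpl3 had interactions of 0.24 and 0.17 (adjusted p = 0.044 and 0.046), and of 3 other probe sets of Mrpl3 the next brightest gave -0.17. The 45 measured cytosolic ribosomal proteins had no interaction call and a median interaction of -0.0017, with 16 called lower in hippocampus and 9 in prefrontal cortex. Relative to the median of all genes that list had a median of 0.0054 with the run as a block, against -0.0093 without it. When the run was blocked, the 4 called members had interactions of 0.44 for Mrpl55, 0.29 for Mrps11, 0.28 for Mrps18a and 0.12 for Mrpl3, none called.

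Relative to the median of all genes, the median interaction was 0.08 for the proteasome, 0.04 for oxidative phosphorylation and 0.07 for the mitochondrial ribosome. It was 0.08, 0.04 and 0.09 when each array was centred on its median, and 0.11, 0.04 and 0.07 with the run as a block, where none of the 3 lists kept a call. Lists put together after the calls had been seen are given as a description alone. Of 22 genes of mitochondrial protein import, 2 were called, Timm23, the channel of the inner membrane translocase, and Dnajc15, a J-domain protein of its motor. Timm23 measured 10.91 to 11.16 in Df(16)A/+ prefrontal cortex, against 11.16 to 11.28 in wild-type prefrontal cortex, at 85.8% of the wild-type signal. Dnajc15 measured 9.53 to 9.80 (median 9.66) in Df(16)A/+ prefrontal cortex, against 9.83 to 10.00 (median 9.92) in wild-type prefrontal cortex, and 9.79 to 9.99 (median 9.88) in Df(16)A/+ hippocampus, against 9.82 to 10.05 (median 9.96) in wild-type hippocampus. Its interaction was 0.22 ± 0.05 (adjusted p = 0.036) and rose to 0.33 ± 0.07 once the run was a block (adjusted p = 0.041), so it was called either way. Over all 11304 genes, 1.07% were called in the interaction, 9.59% lower in prefrontal cortex and 8.68% lower in hippocampus. Of the 10 COP9 signalosome genes Cops6 was the 1 called, with 5 called lower in prefrontal cortex and none in hippocampus. Of 6 genes of tail-anchor insertion Get3 was, with 3 called lower in prefrontal cortex and none in hippocampus. The remaining lists of this kind had 1 call each, Ufsp2 among 7 genes of UFM1 conjugation, Vps4a, the ATPase that disassembles ESCRT filaments, among 19, and Sar1b, the GTPase that starts COPII vesicles, among 12. Their interactions were above 0 in 3 of 7, 10 of 19 and 8 of 12 genes, against 5895 of 11304 of all. Blocking the run gave 0.14 for Timm23, 0.18 for Vps4a and 0.14 for Sar1b, none called. Genes outside the lists whose names were picked after their values were seen include Pomp, a proteasome assembly factor (-0.01 in hippocampus and -0.21 in prefrontal cortex), Coa3, an assembly factor of cytochrome oxidase (-0.04 and -0.19), Dap3, a small-subunit protein of the mitochondrial ribosome (0.06 and -0.19), and Pdhb, a subunit of pyruvate dehydrogenase (0.05 and -0.16).

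**Figure D3:**
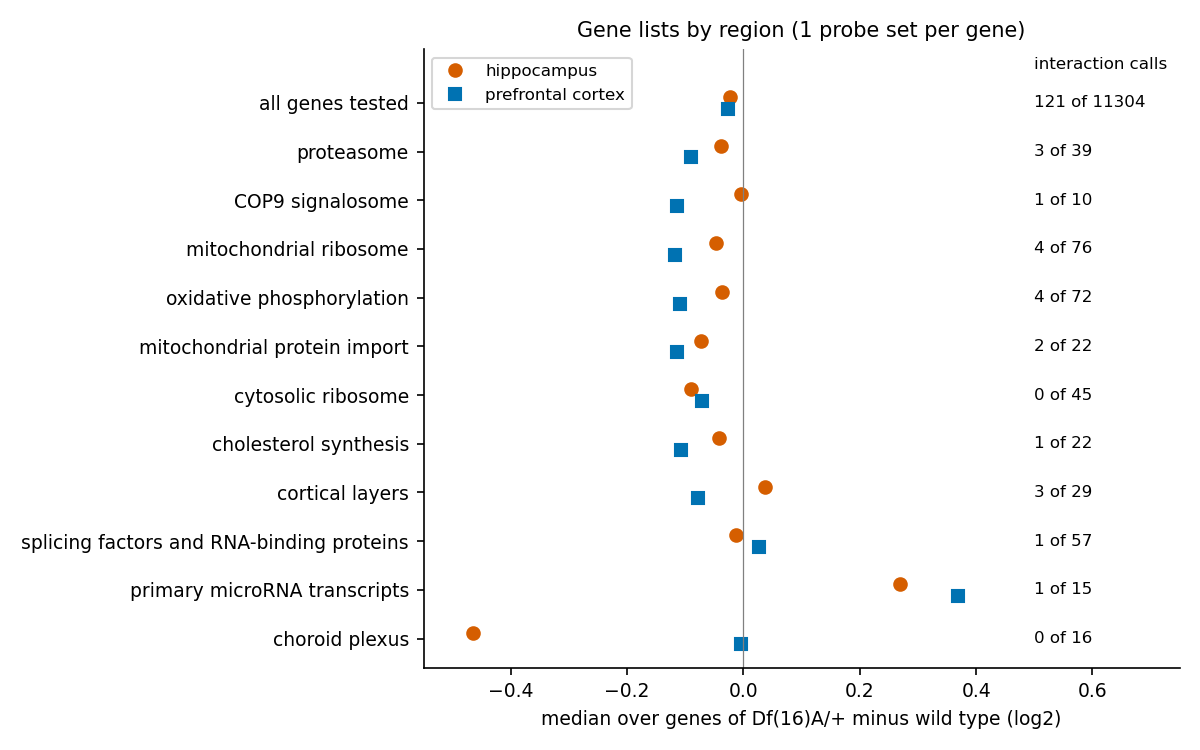
For each gene list drawn, and for all genes, the circle is the median over its genes of the Df(16)A/+ minus wild-type difference in hippocampus and the square the same in prefrontal cortex (log2 scale, 1 probe set per gene), and the numbers at the right give interaction calls of measured genes. The squares of the proteasome, COP9, mitochondrial and cholesterol lists lie left of their circles, and of the lists drawn the choroid plexus has the circle farthest left, at -0.46.

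Fdps, farnesyl diphosphate synthase of the mevalonate pathway, was the 1 called gene of 22 in cholesterol synthesis, where 1.07% of all genes were called. It measured 8.86 to 9.52 (median 9.25) in Df(16)A/+ prefrontal cortex, against 9.64 to 9.92 (median 9.73) in wild-type prefrontal cortex. It measured 9.31 to 9.99 (median 9.68) in Df(16)A/+ hippocampus, against 9.44 to 10.02 (median 9.70) in wild-type hippocampus. The prefrontal groups were separate, at 68.8% of wild type, and the hippocampal groups lay on each other. The interaction was 0.52 ± 0.11 (adjusted p = 0.030), and 0.48 ± 0.18 with the run blocked (adjusted p = 0.34). In the pathway 7 genes were called lower in prefrontal cortex and 2 in hippocampus, against 9.59% and 8.68% of all genes. The median interaction of the list was 0.02, and 13 of 22 were above 0, against 5895 of 11304 of all genes.

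Ifngr2, the signalling chain of the interferon gamma receptor, had the largest interaction of the named genes, 1.05 ± 0.21 (adjusted p = 0.0124). In prefrontal cortex its signal was 6.77 to 8.14 (median 7.05) in Df(16)A/+, against 7.82 to 8.26 (median 8.00) in wild type. In hippocampus it was 8.08 to 9.17 (median 8.79) in Df(16)A/+, against 8.21 to 8.68 (median 8.43) in wild type. Of the 10 mutant prefrontal arrays, 8 lay below every wild-type array, and the other 2 lay within the wild-type range. The gene is annotated to chromosome 16, which carries the deletion, but is not in the deleted interval. With the run as a block the interaction was 0.59 ± 0.30 (adjusted p = 0.53).

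Chromosome 16 held 14 called probe sets of 704 tested (1.99%), against 0.86% of all tested, and the next highest share was 1.44% on chromosome 3, apart from chromosome Y, where 1 of 7 (Kdm5d) was called. None of the 14 belonged to a gene of the deleted interval. They were Hacd2, Ifngr2, Son, Ltn1, Jam2, Kpna1, Zfp263, Dzip3, Vasn with 2 probe sets, Acap2, Fgd4, Qtrt2 and Fstl1, with 6 interactions above 0 and 8 below. For Hacd2, Ltn1, Jam2, Kpna1, Zfp263 and Fstl1 the called probe set was not the brightest of the gene. The brightest probe set of each of these genes was not called in the interaction. The called probe set of Hacd2, an enzyme of very long fatty acid elongation, was 0.42 higher in Df(16)A/+ hippocampus and 0.34 lower in Df(16)A/+ prefrontal cortex (interaction 0.76 ± 0.14, adjusted p = 0.0091). That of Ltn1, a ubiquitin ligase of stalled ribosomes, was 0.86 higher in Df(16)A/+ hippocampus with -0.14 in prefrontal cortex (interaction 1.00 ± 0.21, adjusted p = 0.025). Vasn, vasorin, a membrane protein that binds TGF-beta, had interactions of -0.58 and -0.63 at its 2 probe sets. None of the 14 was called with the run as a block.

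The deleted interval itself had no region-dependent response that passed the test. Of 19 measured genes, none was called in the interaction, with values between -0.26 (Prodh) and 0.36 (Trmt2a) and a smallest adjusted p of 0.24 (Ranbp1). The median genotype difference was -1.12 in hippocampus, where 18 were called lower, and -1.18 in prefrontal cortex, where all 19 were. Txnrd2, a mitochondrial thioredoxin reductase, was the exception in hippocampus, at -0.09 there (adjusted p = 0.49) and -0.33 in prefrontal cortex (adjusted p = 0.0096). Dgcr8 stood at -0.74 in hippocampus and -0.70 in prefrontal cortex, an interaction of -0.04 (adjusted p = 0.87).

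Mir9-3hg was the 1 called member of 15 measured noncoding primary microRNA transcripts, where 1.07% of all genes were called. It is a long noncoding RNA whose span holds Mir9-3, from which the neural microRNA miR-9 is cut. The mature sequences are shown because both arms are shared by all 3 mouse miR-9 genes, so that the mature microRNAs do not tell the genes apart (RefSeq, GRCm38.p6, chr7:79505279-79505301 and chr7:79505318-79505339, plus strand). Capitals mark the seed, bases 2 to 8.
miR-9-5p: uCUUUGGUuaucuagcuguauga
miR-9-3p: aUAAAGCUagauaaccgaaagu
In prefrontal cortex Mir9-3hg measured 9.85 to 10.12 (median 10.00) in Df(16)A/+, against 9.37 to 9.64 (median 9.51) in wild type. In hippocampus it measured 8.81 to 9.41 (median 9.23) in Df(16)A/+, against 8.65 to 9.16 (median 9.10) in wild type. All prefrontal mutant arrays lay above all wild-type ones, at 141% of wild type, and the hippocampal groups overlapped at 110%. The interaction was -0.35 ± 0.09 (adjusted p = 0.049), and -0.27 ± 0.12 once the run was a block (adjusted p = 0.44), and the call was lost without any 1 of 30 of the 40 arrays (adjusted p up to 0.075).

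The transcript that holds Mir9-2, C130071C03Rik, was 0.56 higher in Df(16)A/+ hippocampus and 0.58 higher in Df(16)A/+ prefrontal cortex, with an interaction of -0.02 (adjusted p = 0.93). A dimmer probe set of the same gene was among the 31 called with the run as a block, at 0.79 there and 0.16 without it. Of the 15 transcripts, 7 were called higher in hippocampus, where 4.59% of all genes were, and 8 in prefrontal cortex, where 3.2% were, none lower, and the median interaction was -0.10. A330023F24Rik, which holds Mir29b-2 and Mir29c, was 0.79 higher in hippocampus and 1.04 higher in prefrontal cortex (interaction -0.25, adjusted p = 0.17), and Lncppara, which holds Mirlet7b and Mirlet7c-2, was 0.95 and 1.19 higher (interaction -0.25, adjusted p = 0.37). For Snhg14, Oip5os1 and Mir99ahg, counted among the 15, the RefSeq table places no microRNA within the span.

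**Figure D4:**
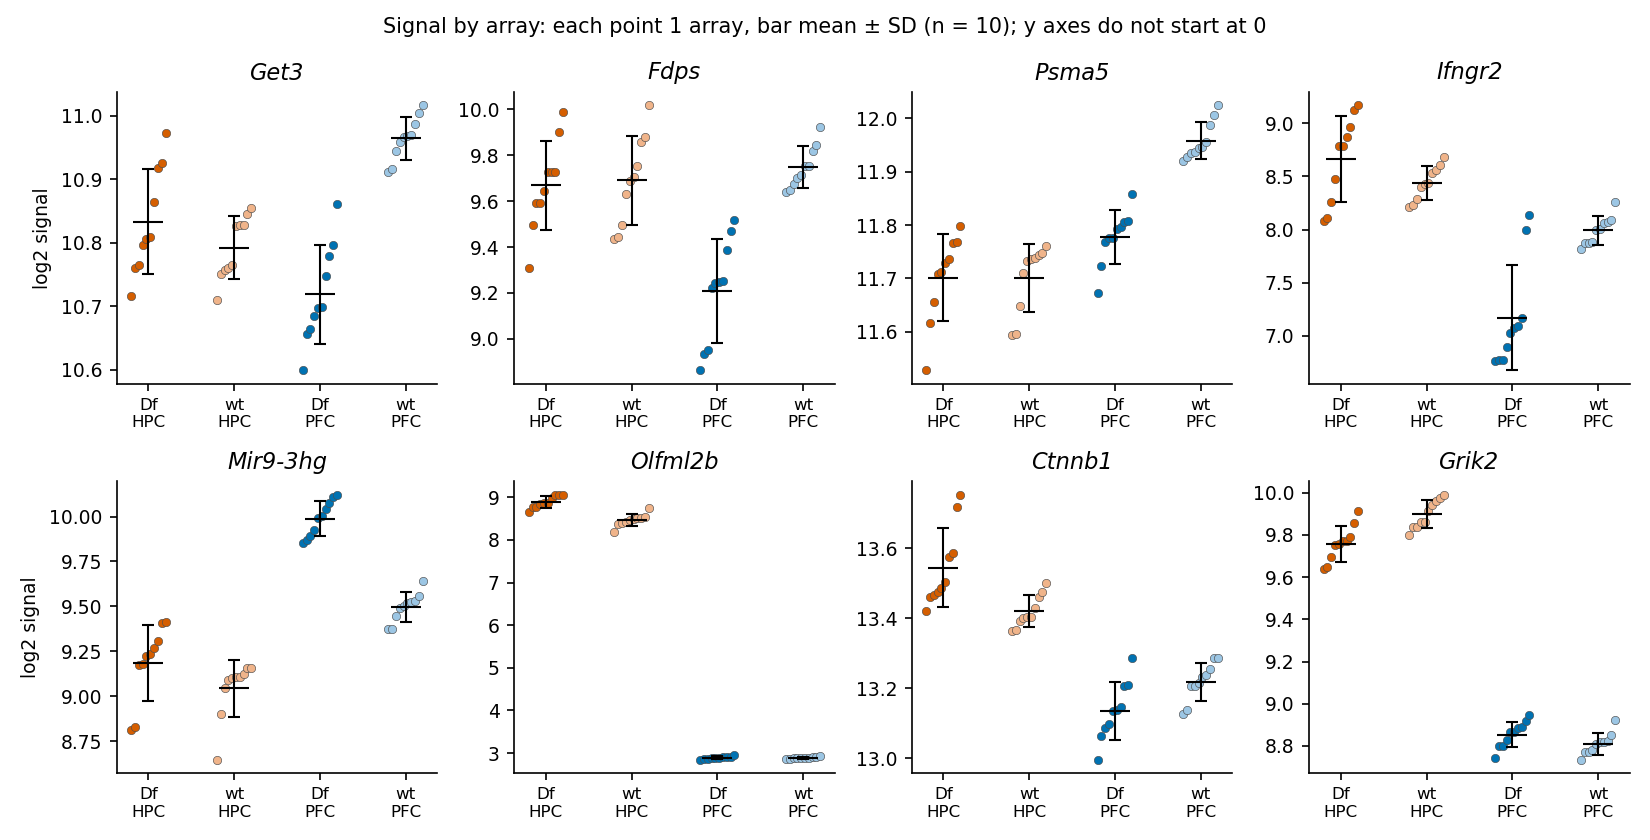
Each point is the log2 signal of 1 array, and the bar is the mean ± SD of 10 arrays, for Df(16)A/+ and wild-type hippocampus and then Df(16)A/+ and wild-type prefrontal cortex (Df and wt, HPC and PFC). Get3, Fdps and Psma5 separate in prefrontal cortex alone, with the mutant below. Ifngr2 has 8 mutant prefrontal arrays below all wild-type ones. Mir9-3hg separates there with the mutant above, and Olfml2b, Ctnnb1 and Grik2 differ in hippocampus with overlapping groups.

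Of 29 measured genes of cortical layers, 3 were called in the interaction, all above 0 (Tle4, Rspo1 and Inhba), against 1.07% of all genes. In Df(16)A/+ prefrontal cortex 6 were called lower, where 9.59% of all genes were, and in Df(16)A/+ hippocampus 1, where 8.68% were. The median interaction was 0.15, against 0.01 for all genes and 0.05 for the list with the run as a block. Tle4, a Groucho corepressor of deep-layer neurons, measured 8.83 to 9.71 (median 9.18) in Df(16)A/+ prefrontal cortex, against 9.49 to 9.72 (median 9.69) in wild-type prefrontal cortex, and 10.35 to 10.75 (median 10.54) in Df(16)A/+ hippocampus, against 10.44 to 10.73 (median 10.61) in wild-type hippocampus. In prefrontal cortex 9 of the 10 mutant arrays lay below the wild-type mean, and the interaction was 0.37 ± 0.09 (adjusted p = 0.043). Rspo1, a secreted enhancer of Wnt signalling, was at 77.5% of wild type in Df(16)A/+ prefrontal cortex, and its hippocampal signal of about 2.5 in both genotypes was near the floor of the scale, so a fall there could not have been seen. Inhba, also in the list of activity-regulated genes, encodes the activin A chain and is induced by neuronal activity. It measured 6.25 to 7.31 (median 6.60) in Df(16)A/+ prefrontal cortex, against 6.81 to 7.59 (median 7.05) in wild-type prefrontal cortex, and 4.96 to 6.00 (median 5.23) in Df(16)A/+ hippocampus, against 4.66 to 5.32 (median 5.02) in wild-type hippocampus. The groups overlapped in both regions, the interaction was 0.71 ± 0.17 (adjusted p = 0.038), and 1.03 ± 0.22 with the run blocked (adjusted p = 0.041). In bulk tissue, fewer cells of a type and less RNA per cell cannot be told apart. The log2 of the summed signal of the cortical layer list was 16.04 to 16.13 in Df(16)A/+ prefrontal cortex, against 16.06 to 16.18 in wild-type prefrontal cortex. The interaction of the other called members was 0.43 for Tle4 and 0.35 for Rspo1 when the run was blocked, neither called.

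Other genes lower in Df(16)A/+ prefrontal cortex with no hippocampal call had interactions between 0.32 and 0.51. They were Txnl4b, a thioredoxin-like splicing factor (79.3% of wild type), Git2, a scaffold that inactivates ARF GTPases (84.5%), Ddx56, a nucleolar RNA helicase (76.8%), Kdm5d, a histone demethylase encoded on the Y chromosome (84.2%), Osbpl5, a lipid transfer protein (76.6%), and Cpne4, a calcium-binding protein enriched in CA3 (88.4%). Their adjusted p lay between 0.026 and 0.041. With the run in the model the interaction was 0.53 for Txnl4b, 0.20 for Git2, 0.31 for Ddx56, 0.42 for Kdm5d, 0.41 for Osbpl5 and 0.15 for Cpne4, none called.

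Fewer transcripts were higher in Df(16)A/+ prefrontal cortex only, 21 probe sets, and 9 genes by the probe set kept for the gene. Slc1a3, the glial glutamate transporter GLAST, measured 12.87 to 13.31 (median 13.16) in Df(16)A/+ prefrontal cortex, against 12.76 to 13.04 (median 12.85) in wild-type prefrontal cortex. In hippocampus the values were 12.18 to 12.77 (median 12.65) in Df(16)A/+, against 12.60 to 12.90 (median 12.71) in wild type. The mutant was at 121% of wild type in prefrontal cortex and 92.3% in hippocampus, and the interaction was -0.39 ± 0.08 (adjusted p = 0.029). The 4 other probe sets of Slc1a3 gave -0.08 to -0.13 and were not called, and of the 21 measured astrocyte markers Slc1a3 was the 1 called, with summed signals (log2) of 16.48 to 16.68 in Df(16)A/+ prefrontal cortex, against 16.43 to 16.50 in wild-type prefrontal cortex. Pom121, a nuclear pore membrane protein, was at 116% of wild type without overlap (interaction -0.30, adjusted p = 0.045). Ccdc3, a secreted protein, and Mapkbp1, a scaffold of JNK signalling, were at 124% and 115% (interactions -0.43 and -0.31, adjusted p = 0.026 and 0.035), and the second probe set of Mapkbp1 gave 0.04. Blocking the run gave -0.21 for Slc1a3, -0.21 for Pom121, -0.54 for Ccdc3 and -0.36 for Mapkbp1, none called.

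The hippocampal class was smaller and its groups overlapped for every named gene. Olfml2b, an extracellular olfactomedin-domain protein, had the smallest adjusted p of the whole comparison. It measured 8.66 to 9.06 (median 8.87) in Df(16)A/+ hippocampus, against 8.19 to 8.74 (median 8.48) in wild-type hippocampus, and about 2.9 in all 20 prefrontal arrays. All 10 mutant arrays lay above the wild-type mean, at 135%, and the interaction was 0.43 ± 0.06 (adjusted p = 0.0014). Its prefrontal signal was near the floor, so the interaction there repeats the hippocampal difference. With the run as a block it was 0.43 ± 0.10 (adjusted p = 0.061). Gpr161, a ciliary receptor that restrains hedgehog signalling (121% of wild type), and Htr4, a serotonin receptor (77.8%), were likewise dim in prefrontal cortex, and with the run blocked their interactions were 0.17 for Gpr161 and -0.09 for Htr4.

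Among genes expressed in both regions, Elmo1, a partner of Dock proteins in Rac activation, was at 130% of wild type in Df(16)A/+ hippocampus and 87.3% in Df(16)A/+ prefrontal cortex. Its signal was 7.99 to 8.65 (median 8.31) in Df(16)A/+ hippocampus, against 6.96 to 8.27 (median 8.03) in wild-type hippocampus. In prefrontal cortex it was 9.14 to 9.51 (median 9.30) in Df(16)A/+, against 9.38 to 9.70 (median 9.52) in wild type. All 10 mutant arrays lay above the wild-type mean in hippocampus and all 10 below it in prefrontal cortex, and the interaction was 0.57 ± 0.13 (adjusted p = 0.038). A dimmer probe set of Elmo1 stood at 0.59 in hippocampus and 0.03 in prefrontal cortex (interaction 0.55, adjusted p = 0.14). The dimmest, with a mean of 3.3, stood at 0.08 and -0.15 (interaction 0.23, adjusted p = 0.11). Fxyd7, a regulator of the sodium pump in brain, was at 135% of wild type in Df(16)A/+ hippocampus (interaction 0.40 ± 0.10, adjusted p = 0.046), and this turned to -0.03 ± 0.11 with the run as a block. Dusp14, a phosphatase of MAP kinases, stood at 125%, Lrrtm2, a postsynaptic partner of neurexins, at 118%, and Ctnnb1, beta-catenin, at 109% (interactions 0.42, 0.36 and 0.21, adjusted p = 0.041, 0.038 and 0.046). Other probe sets of Lrrtm2 gave -0.09 (its equally bright one) and 0.06, and those of Ctnnb1 gave 0.15 and 0.07, none called. A block for the run left 0.32 for Elmo1, 0.26 for Dusp14, 0.36 for Lrrtm2 and 0.08 for Ctnnb1, none called.

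Genes lower in Df(16)A/+ hippocampus only included Grik2, the kainate receptor subunit GluK2. It measured 9.64 to 9.91 (median 9.76) in Df(16)A/+ hippocampus, against 9.80 to 9.99 (median 9.89) in wild-type hippocampus, and 8.74 to 8.95 (median 8.87) in Df(16)A/+ prefrontal cortex, against 8.74 to 8.92 (median 8.81) in wild-type prefrontal cortex. The interaction was -0.18 ± 0.05 (adjusted p = 0.047), and a dimmer probe set gave 0.18 (adjusted p = 0.36). Arid1b, a subunit of the BAF chromatin remodeller, was at 88.9% of wild type in hippocampus and 109% in prefrontal cortex (interaction -0.30, adjusted p = 0.038). Tsks, a testis-enriched kinase substrate, had the largest fall, at 66.4% (interaction -1.02 ± 0.24, adjusted p = 0.038). Shc1, an adaptor of growth factor receptors, was at 81.5%, Cnot2, of the CCR4-NOT deadenylase, at 82.3%, Qtrt2, of tRNA queuosine synthesis, at 79.3%, Fgd4, an activator of Cdc42, at 82.4%, and Vasn at 78.3%. None of these was called with the run as a block, where the interaction was -0.06 for Grik2, -0.21 for Arid1b, -0.65 for Tsks, -0.36 for Shc1, -0.07 for Cnot2, -0.10 for Qtrt2, -0.19 for Fgd4 and -0.38 for Vasn. Other probe sets gave 0.25 for Fgd4, and between -0.14 and 0.10 for Cnot2, none called.

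In 7 genes the regions moved in opposite ways at the probe set kept for the gene, each called in both regions. Ttbk2, a kinase needed to start cilia, measured 9.03 to 9.30 (median 9.17) in Df(16)A/+ hippocampus, against 8.86 to 9.16 (median 9.00) in wild-type hippocampus, and 9.46 to 9.58 (median 9.52) in Df(16)A/+ prefrontal cortex, against 9.51 to 9.73 (median 9.65) in wild-type prefrontal cortex. All 10 mutant arrays lay above the wild-type mean in hippocampus and all 10 below it in prefrontal cortex (interaction 0.26 ± 0.05, adjusted p = 0.018). A dimmer probe set of Ttbk2 was 0.43 higher in Df(16)A/+ hippocampus and 0.23 higher in Df(16)A/+ prefrontal cortex (interaction 0.20, adjusted p = 0.63). Gskip, an anchor of protein kinase A and GSK3, Arhgap20, a GTPase-activating protein, and Eif4e, the cap-binding translation factor, went the same way (interactions 0.28, 0.29 and 0.23, adjusted p = 0.0124, 0.029 and 0.038). For Eif4e the next probe set gave 0.28 and was called too (adjusted p = 0.0091), at 0.06 in hippocampus and -0.22 in prefrontal cortex. The other probe set of Arhgap20 stood at -0.0062 in hippocampus and -0.23 in prefrontal cortex. In both the prefrontal fall was the larger part. The 3 other probe sets of Gskip gave interactions of 0.00 to 0.07. The interaction was 0.11 for Ttbk2, 0.19 for Gskip, 0.28 for Arhgap20 and 0.21 for Eif4e when the run was blocked, none called, and the hippocampal difference of Ttbk2 was 0.0021.

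Ogt, which adds O-linked N-acetylglucosamine to nuclear and cytosolic proteins, went the other way. It measured 12.03 to 12.20 (median 12.13) in Df(16)A/+ hippocampus, against 12.14 to 12.29 (median 12.22) in wild-type hippocampus, and 11.95 to 12.10 (median 11.997) in Df(16)A/+ prefrontal cortex, against 11.81 to 11.97 (median 11.92) in wild-type prefrontal cortex. All 10 mutant arrays lay below the wild-type mean in hippocampus and all 10 above it in prefrontal cortex (interaction -0.19 ± 0.04, adjusted p = 0.020). Son, a splicing cofactor, and Npas3, a neuronal transcription factor, had interactions of -0.29 and -0.31 (adjusted p = 0.022 and 0.032). Of 4 other probe sets of Ogt none was called (-0.24 to 0.01), and of 6 of Son none was (-0.15 to 0.16). The 4 of Ogt were 0.0077 to 0.33 higher in Df(16)A/+ hippocampus and 0.16 to 0.39 higher in Df(16)A/+ prefrontal cortex. None of them repeated the hippocampal fall. Other probe sets of Npas3 had -0.19 and 0.23 in hippocampus, with -0.04 and 0.34 in prefrontal cortex, the same sign in both regions. When the run was blocked the values were -0.11 for Ogt, -0.25 for Son and -0.14 for Npas3, none called.

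**Figure D5:**
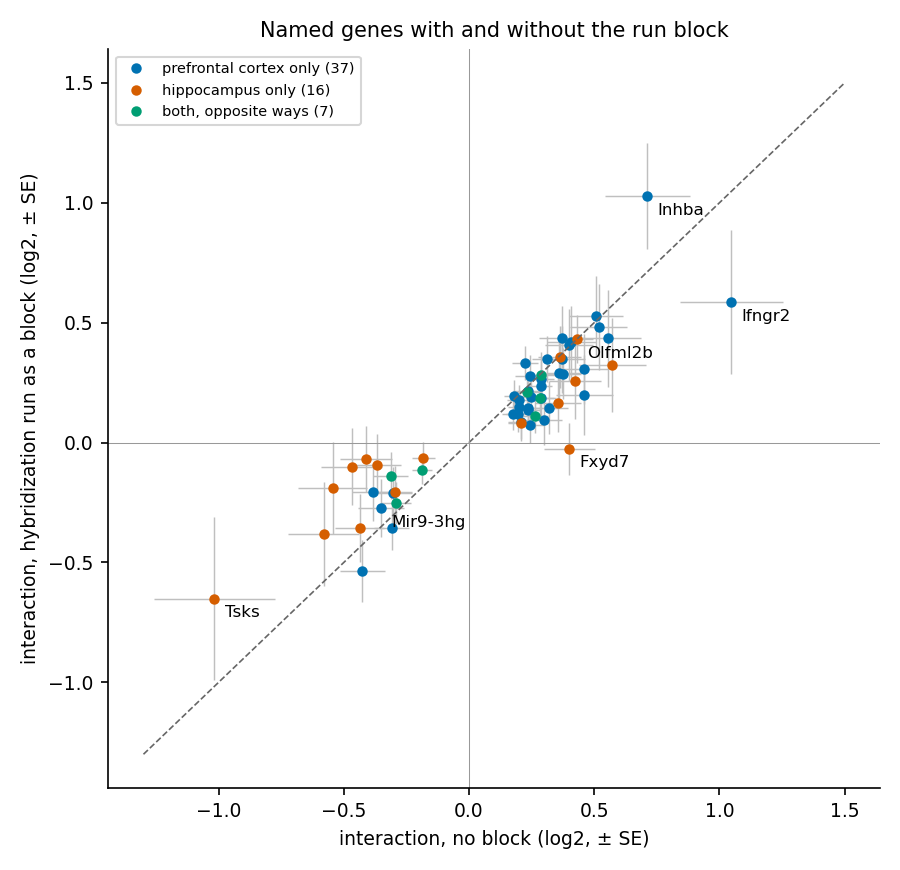
Each point is 1 of the 60 named genes, with its interaction without a block on the horizontal axis and with the hybridization run as a block on the vertical axis (log2 scale, bars ± SE). Points under the dashed line of equality right of 0, and over it left of 0, shrink with the block. Signs are the same for 59 genes, Fxyd7 crosses 0, and of the genes right of 0 Inhba lies farthest above the line.

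Among all 60 named genes the median absolute interaction was 0.32, and with the run as a block 0.21. The Df(16)A/+ prefrontal arrays lay below the wild-type ones without overlap for 11 of them, Fdps, Spsb3, Iftap, Get3, Cops6, Timm23, Ndufs1, Dnajc15, Psma2, Vps4a and Psma5, and above for Pom121 and Mir9-3hg, in a comparison that called 12.9% of all probe sets. In hippocampus no named gene separated the groups, in a comparison that called 15.6%. Both shares are of limma calls, and the share of all probe sets whose groups separate was not counted. The named genes were chosen by their interaction, so these counts describe them alone and do not compare the regions. Without each of the 40 arrays in turn, 18 of the 60 stayed called throughout.

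In lists of neuronal and nuclear function the interaction calls were 0 or 1 per list, where 1.07% of all genes were called. None was called among 39 genes of presynaptic release, 17 of GABA signalling, 44 voltage-gated potassium channels and 30 sodium and calcium channels. There was 1 among 28 glutamate receptors (Grik2), 1 among 33 postsynaptic scaffolds (Lrrtm2), 1 among 34 activity-regulated genes (Inhba), 1 among 27 monoamine and neuropeptide receptors (Htr4), 1 among 43 chromatin regulators (Arid1b), 1 among 57 splicing factors (Son) and 1 among 22 interferon genes (Ifngr2).

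Choroid plexus markers had no interaction call. Of 16 markers, 14 had an interaction below 0 and 2 above it (12.5%, against 52.1% of all genes above 0). Most had prefrontal means under 4 in both genotypes, such as Aqp1 at 2.17 in Df(16)A/+ and 2.16 in wild type. A prefrontal difference could hardly have been measured there, so most of these signs repeat the hippocampal difference. The median difference over 16 measured markers was -0.46 in hippocampus and -0.0038 in prefrontal cortex. In hippocampus 1 was called lower (Steap1), where 8.68% of all genes were. The log2 of their summed signal was 13.16 to 15.93 in Df(16)A/+ hippocampus, against 12.78 to 15.82 in wild-type hippocampus, and 10.59 to 12.16 in Df(16)A/+ prefrontal cortex, against 10.55 to 11.07 in wild-type prefrontal cortex. Ttr, transthyretin, and Kl, klotho, had differences of 0.07 and -0.08 in hippocampus, and Kcne2 -1.13. Endothelial markers had a median of -0.16 in hippocampus and -0.24 in prefrontal cortex over 13 genes, and microglial markers -0.05 and -0.14 over 18 genes, with no interaction call in either list. The part of these cells in the interaction calls was not tested.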

How the data were processed

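Each of the 40 tissue samples was hybridized to 1 Mouse430_2 array, and the deposited log2 values were made by the authors with GCRMA, per the submitters' processing notes (GCRMA's version: not given in the sources used here). Precision is limited by the number of arrays, 10 in each group. All columns belonged to a sample. The values of all arrays were quantile-normalized together, and probe sets above 4 in 10 or more arrays were kept. A model with the 4 groups as terms was fitted with limma 3.58.1 (lmFit and eBayes, R 4.3.3), with Benjamini-Hochberg adjustment over all 22548 probe sets and a threshold of 0.05. The interaction is the Df(16)A/+ minus wild-type difference in hippocampus minus that in prefrontal cortex, and the script was tested on simulated data. Hybridization starts within 5 minutes of each other were taken as 1 run. A run effect common to both regions and one free to differ between them gave the same fit.

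A gene was represented by its probe set of highest mean signal. The 60 genes named from the calls are the 12 largest interactions in each direction with all group means at or above 4, the 4 largest with a mean under 4, the 10 of smallest adjusted p, those called with the run as a block, the 4 called members of smallest p in each gene list, called primary microRNA transcripts, and up to 10 called in opposite ways. Other genes are named where a list or chromosome is described. The comparison and the gene lists were chosen with earlier results of these data known, and 6 lists (COP9 signalosome, tail-anchor insertion, UFM1 conjugation, mitochondrial protein import, endosomal sorting and COPII) after the calls were seen. Promoters and mature microRNAs are from RefSeq (GRCm38.p6), matched by symbol. The alternatives were other scalings, filters, variance models, blocks and covariates, and leaving out arrays.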

Additional observations from a re-analysis of the deposited data

Results flagged for a closer look

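The genotype difference departed between the regions, by the interaction term itself (limma, adjusted p under 0.05), in all 60 named genes, and the values below are the difference in hippocampus minus that in prefrontal cortex on the log2 scale. Called in prefrontal cortex and not in hippocampus, with the mutant lower in prefrontal cortex, were Ifngr2 (1.05), Inhba (0.71), Mrpl55 (0.56), Fdps (0.52), Txnl4b (0.51), Git2 (0.46), Ddx56 (0.46), Kdm5d (0.41), Osbpl5 (0.40), Spsb3 (0.38), Rspo1 (0.37), Tle4 (0.37), Mrps11 (0.36), Cpne4 (0.32), Pde6d (0.31), Atp5g2 (0.30), Iftap (0.29), Ufsp2 (0.29), Get3 (0.29), Cops6 (0.25), Mrps18a (0.24), Psmd14 (0.24), Sar1b (0.24), Timm23 (0.23), Ndufs1 (0.23), Dnajc15 (0.22), Atp5c1 (0.21), Psma2 (0.20), Vps4a (0.20), Ndufs3 (0.20), Psma5 (0.18) and Mrpl3 (0.17). The mutant was higher in prefrontal cortex, with no hippocampal call, for Pom121 (-0.30), Mapkbp1 (-0.31), Mir9-3hg (-0.35), Slc1a3 (-0.39) and Ccdc3 (-0.43). The mutant was higher in hippocampus, with no prefrontal call, for Elmo1 (0.57), Olfml2b (0.43), Dusp14 (0.42), Fxyd7 (0.40), Lrrtm2 (0.36), Gpr161 (0.35) and Ctnnb1 (0.21). The mutant was lower in hippocampus, with no prefrontal call, for Grik2 (-0.18), Arid1b (-0.30), Htr4 (-0.37), Cnot2 (-0.41), Shc1 (-0.44), Qtrt2 (-0.47), Fgd4 (-0.54), Vasn (-0.58) and Tsks (-1.02). Higher in mutant hippocampus and lower in mutant prefrontal cortex were Arhgap20 (0.29), Gskip (0.28), Ttbk2 (0.26) and Eif4e (0.23). The reverse held for Ogt (-0.19), Son (-0.29) and Npas3 (-0.31). Once the run was a block, Dnajc15 and Inhba were the 2 called among the 60, and the part of the run in the others was not tested further.

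In 15 of 240 groups, the 60 genes in 4 groups of 10 arrays each, a single array stood apart from the other 9 by Dixon's gap rule, which chance meets in about 1 group in 20. In Df(16)A/+ hippocampus these were Mrpl55 at 7.63 in replicate 5, the highest, Kdm5d at 7.78 in replicate 3, the highest, Osbpl5 at 3.86 in replicate 8, the lowest, Slc1a3 at 12.18 in replicate 3, the lowest, and Tsks at 5.04 in replicate 3, the lowest. In wild-type hippocampus these were Elmo1 at 6.96 in replicate 1, the lowest, Mrpl55 at 6.60 in replicate 10, the lowest, Osbpl5 at 4.03 in replicate 5, the lowest, Rspo1 at 2.47 in replicate 1, the lowest, Cops6 at 10.84 in replicate 2, the lowest, Mir9-3hg at 8.65 in replicate 9, the lowest, and Cnot2 at 10.14 in replicate 7, the lowest. In Df(16)A/+ prefrontal cortex these were Txnl4b at 7.59 in replicate 2, the highest, and Olfml2b at 2.96 in replicate 5, the highest. In wild-type prefrontal cortex this was Shc1 at 5.91 in replicate 4, the lowest.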

How the results depend on the processing

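The count of interaction calls, 194 as reported, moved with the processing. It was 572 on the values as deposited (509 above and 63 below 0), 1049 with each array centred on its median, 88 with no filter, 556 with array weights, and 19 when 1.5-fold was also asked. With the hybridization run as a block it was 31, with the chip lot 1, with both 23, with the run as a random block 3, and 72 over runs that held both genotypes of a region. With the beta-actin 3′ minus 5′ difference as a covariate it was 56, and 31 with that covariate by region. It was 18 without the 3 arrays of chip lots 3 and 4. Normalization within each region (219), filters at 6 (234) or in each region (201), a trended robust variance (242) and omission of the run 1 array (221) kept it within 1.5 times. Without 1 array in turn it ran between 36 and 727, and moved by over 1.5 times without Df(16)A/+ hippocampus replicates 1, 2, 3, 5 and 7, wild-type hippocampus replicates 2, 3, 4, 5 and 10, Df(16)A/+ prefrontal cortex replicates 4, 5, 7, 8 and 9, or wild-type prefrontal cortex replicates 1, 2, 6, 8, 9 and 10. The cause was not tested.

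Replicate numbers were not shown to pair the samples: deviations of same-numbered samples of the 2 regions correlated between -0.27 and 0.21 (8 of 20 above 0.1), and 2 of 20 matched their own number best. With the number within genotype as a replicate block the count was 270 (random) and 105 (fixed), and 128 with the numbers 1 to 10 as a fixed block.

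Genotype calls in hippocampus were 1505 in the 20 arrays of the region alone and 66 with the run as a block. In prefrontal cortex they were 3927 in the 20 arrays of the region alone and 1545 with that block. The hippocampal class held 40 probe sets when the other region had to have an unadjusted p of 0.05 or more, 156 on the values as deposited and 7 with the run as a block. The prefrontal class held 334 as deposited and 19 with the run as a block, and the opposite class held 1 with it. The interaction of Fxyd7 reversed, at -0.0258 with the run as a block, -0.0606 with run and lot, and -0.0258 over runs with both genotypes. All 60 named genes stayed called under the trended robust variance, within-region normalization and the random replicate block, and none with the chip lot as a block.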

Other observations

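A model with the run as a block made 29 calls that the model without it did not make, and these values belong to that fit alone. Malat1, an abundant nuclear long noncoding RNA, had 4 of its 7 tested probe sets among them, with interactions between -1.81 and -1.31. Ankrd11, a chromatin regulator, had 2, at -1.26 and -1.23, and Crebbp, a histone acetyltransferase, was at -1.01. Without the block the Malat1 probe sets had interactions between -0.36 and 0.22, and Ankrd11 had -0.15 and -0.24, none of them called. The hippocampal difference of those 4 Malat1 probe sets was -1.15 to -0.35 with the block and 0.49 to 0.88 without it. These genes were named after their values were seen.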
